A study of Homo sapiens with 9 samples.

Results

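The genes described here were the protein-coding genes of chromosome 8 that were well expressed in control cells of OVCA433, an established ovarian cancer line of serous origin, and that were lower as a body in cells depleted of MPZL3. There were 344 of them, 128 on the short arm (8p) and 216 on the long arm (8q), among 58676 genes in the count table and 681 protein-coding genes of the chromosome. They were chosen by their level in the control libraries, a mean of at least 10 CPM (the count divided by the library total and scaled to 1e6), and the chromosome itself was chosen by its lower level in the knockdown libraries of these data. The shift against control is therefore given as a description, with no test over the genes. A further 10 genes of this level, ESRP1, GRHL2 and MAL2 among them, were left out by name. The genes just inside the limit were SGK3 at 10.0 CPM, NUDT18 at 10.2 CPM and SLC7A2 at 10.2 CPM, and those just outside it were CLDN23 at 9.07 CPM, TMEM67 at 9.34 CPM and TOX at 9.35 CPM. All 344 genes had enough counts to be tested.

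RNA was sequenced from 3 groups of 3 libraries, marked A, B and C. The control cells carried a control vector, which the study calls an empty vector for this line in its methods for the sequencing and lists beside a scrambled hairpin elsewhere. The other 2 groups expressed hairpin #1 or hairpin #3, short hairpin RNAs against MPZL3 delivered by lentivirus. In the study's methods the virus was added with polybrene and transduced OVCA433 cells were selected with puromycin. The libraries are described as biological replicates. Whether they came from separate transductions is not stated, so p-values may measure only the spread between cultures. MPZL3, a transmembrane protein of the immunoglobulin family encoded on chromosome 11, was at 19.5 CPM on average in control libraries, 1.87 CPM with hairpin #1 and 1.58 CPM with hairpin #3. Library totals ran from 16850854 to 23890191 counts. Of the markers of a carcinoma line, KRT8 was at 4824 CPM in control and 2091 and 2158 CPM in the knockdown groups, whereas EPCAM went from 404 to 5.43 and 8.98 CPM. Of the serous markers PAX8 was at 97.4 CPM in control and 198 and 208 CPM in the knockdown groups, MSLN at 68.4, 84.9 and 150 CPM, MUC16 at 3.18 CPM in control and 0 in both knockdown groups, and WT1 at 0 in all libraries. The leukocyte marker LYZ was at 0 as well, with the other leukocyte markers reported here at no more than 0.887 CPM.

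Chromosome 8 is one of the most rearranged chromosomes of serous ovarian cancer, in which the short arm is often lost and the long arm is often gained. A change in the number of copies of a chromosome region moves the RNA of many neighbouring genes by a similar small amount, whereas regulation of single genes moves them one by one. DNA was not measured here. In bulk RNA a lower share of cells with full expression and less RNA from every cell cannot be told apart.

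The chromosome 8 genes were lower in all 6 knockdown libraries than in any control library. They took 3.11%, 3.00% and 2.97% of all counts in control libraries A, B and C. Their share was 2.54%, 2.30% and 2.24% with hairpin #1 and 2.67%, 2.59% and 2.49% with hairpin #3. To follow the single gene rather than the most abundant ones, the shift of a library was taken as the median over the genes of the log2 difference in CPM from the control mean, less the same median over 8839 autosomal coding genes of the same control level outside chromosome 8. The control libraries, each set against the other controls, had shifts of 0.02, 0.01 and -0.05. The shifts with hairpin #1 were -0.25 in library A, -0.39 in library B and -0.44 in library C, and those with hairpin #3 were -0.19, -0.23 and -0.27. The mean was -0.36 ± 0.10 (SD, n = 3) with hairpin #1 and -0.23 ± 0.04 (SD, n = 3) with hairpin #3. The median gene thus stood at 77.9% of its control level with hairpin #1 and at 85.3% with hairpin #3. Library A had the smallest shift and library C the largest within each hairpin group, and against the control library of the same letter the shifts were -0.31, -0.39 and -0.42 with hairpin #1 and -0.22, -0.23 and -0.25 with hairpin #3.

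Both arms took part, the long arm more than the short arm. On 8p the shifts were -0.21, -0.32 and -0.38 with hairpin #1 and -0.12, -0.13 and -0.25 with hairpin #3. On 8q they were -0.31, -0.43 and -0.47 with hairpin #1 and -0.23, -0.24 and -0.28 with hairpin #3. The 8q shift lay below the 8p shift in every knockdown library, by 0.04 to 0.11 on the log2 scale, while the 2 arms differed by 0.001 on average in the control libraries. Against the control library of the same letter the arms were closest in hairpin #1 library A. There the 8p shifts were -0.30, -0.32 and -0.38 with hairpin #1 and -0.14, -0.15 and -0.23 with hairpin #3. The 8q shifts were -0.31, -0.42 and -0.43, and -0.24, -0.25 and -0.27. The genes were not chosen by the difference between the hairpins. The chromosome was chosen as low with both hairpins, however, which may limit how far they differ. The hairpin #3 shift was smaller than the hairpin #1 shift by 0.13 over the chromosome, 0.14 on 8p and 0.15 on 8q. A two-sided exact permutation test gave p = 0.2, p = 0.2 and p = 0.1, and p = 0.8 for the difference between the arms, which are 0.267, 0.267, 0.267 and 0.8 after Benjamini-Hochberg adjustment over the 4 comparisons. With 3 libraries against 3 the smallest possible p was 0.1, so these tests could not pass 0.05. Within each of the 3 letters the hairpin #3 shift was the smaller over the chromosome, on 8p and on 8q. With libraries paired by letter, a test added after seeing the data, the exact permutation p was 0.25 for each of these (0.333 after adjustment over the 4 comparisons), the smallest that 3 pairs allow.

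**Figure D1:**
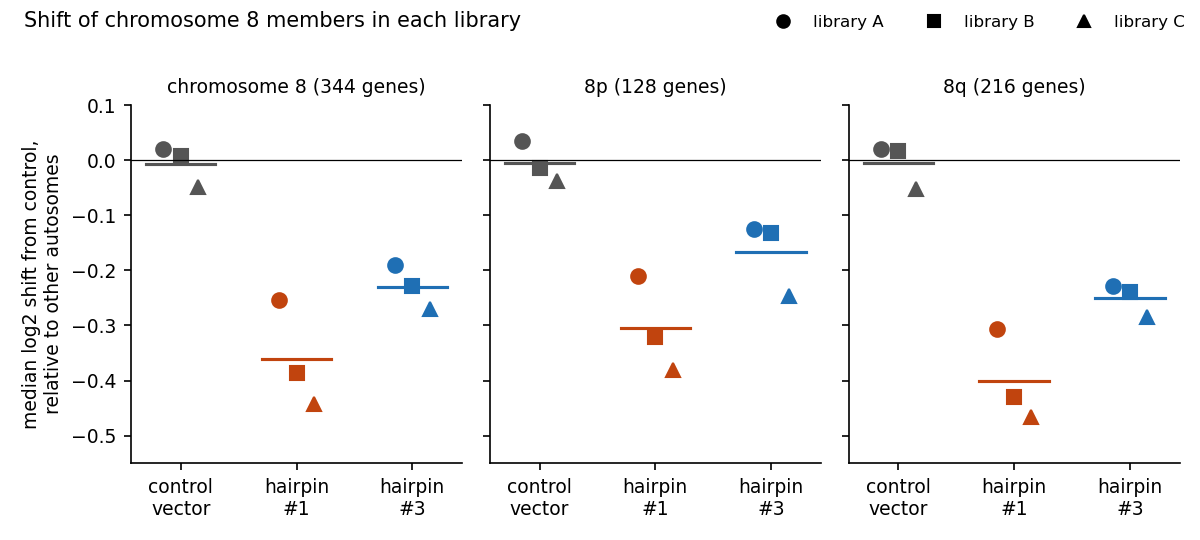
Median log2 shift of the chromosome 8 genes from control, relative to autosomal genes outside the chromosome, in each of the 9 libraries for the whole chromosome, 8p and 8q. Symbols mark libraries A, B and C and lines the group means; all 6 knockdown libraries lie below all 3 control libraries in each panel, with means over the chromosome of -0.36 for hairpin #1 and -0.23 for hairpin #3.

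Of 23 chromosomes, chromosome 8 had the lowest median with hairpin #3 and over both hairpins, where it was -0.30, and the second lowest with hairpin #1. Chromosome 4 was lower with hairpin #1, at -0.39, and chromosome 20 stood at -0.33, but with hairpin #3 these medians were 0.03 and 0.01. The next lowest chromosome with hairpin #3 was chromosome 11, at -0.18. It was low with hairpin #1 as well, at -0.14. Its libraries ran from -0.17 to -0.12 with hairpin #1 and from -0.19 to -0.18 with hairpin #3, below its control range of -0.09 to 0.04. A median below control with both hairpins was thus not particular to chromosome 8. All comparisons with control share the same 3 control libraries.

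**Figure D2:**
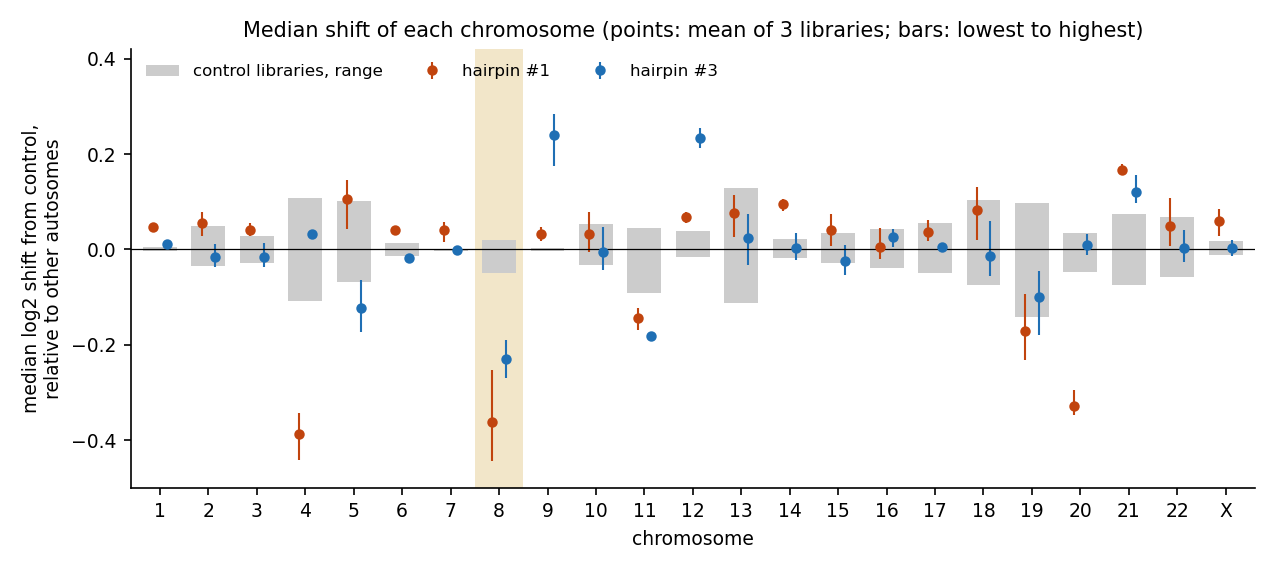
Median log2 shift of each chromosome from control with hairpin #1 and hairpin #3; points are means of 3 libraries, bars run from the lowest to the highest library, and grey boxes give the range of the control libraries. On chromosome 8 (shaded) both hairpins lie below the control range, at -0.36 and -0.23, whereas chromosomes 4 and 20 are low with hairpin #1 alone. Chromosome 11 also lies below its control range with both hairpins, at -0.14 and -0.18.

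In the fit across all genes, 155 of the 344 genes (45.1%) were lower and 21 (6.1%) were higher in the 6 knockdown libraries than in the 3 control libraries, at an adjusted p under 0.05 by edgeR's quasi-likelihood test. Over all 15975 genes tested, 17.0% were called lower and 15.9% higher. Most of these differences were small. At a log2 fold change of 1 or more in size, 32 chromosome 8 genes were lower and 4 were higher, against 7.40% and 7.26% of all tested genes. Among the genes outside the chromosome of the same control level, the shares were 5.72% and 2.82%, beside 9.30% and 1.16% of the chromosome 8 genes. The middle of the distribution ran from -0.54 to -0.09 around a median of -0.32, and 272 of the 344 genes (79.1%) had a fold change below 0, compared with 51.9% of the genes outside the chromosome.

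With hairpin #1, 186 of the genes were lower and 24 higher, beside 19.7% and 18.0% of all tested genes. With hairpin #3, 129 were lower and 24 higher, beside 18.1% and 16.6%. When the library letter was included as a block, 183 genes were lower and 37 higher with hairpin #3, beside 23.6% and 21.9% of all tested genes in that fit. On 8p 39.1% of the genes were lower over both hairpins and 10.9% were higher, and on 8q 48.6% were lower and 3.2% were higher. In 160 genes the highest of the 6 knockdown values was under the lowest of the 3 control values, 49 on 8p and 111 on 8q, which is 46.5% beside 19.9% of the genes outside the chromosome. In 19 genes the knockdown values were all above control, beside 13.6% outside it, and 14 of those were on 8p.

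Between the hairpins themselves, 10 genes were lower and 31 were higher with hairpin #3 than with hairpin #1, beside 5.30% and 6.33% of all tested genes. With the letter as a block these counts were 18 and 88, which is 5.23% and 25.6% of the chromosome 8 genes, beside 10.9% and 12.2% of all tested genes in that fit. They also depended on single libraries. Without hairpin #1 library A, 49 genes were higher, without hairpin #1 library C 6 were lower and 20 higher, without hairpin #3 library B 6 were lower and 16 higher, and without hairpin #3 library C 6 were lower.

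The shift was next followed along the chromosome in medians of 15 neighbouring genes, which gave 316 windows, 114 on 8p and 202 on 8q. At the 8p end the hairpins parted. The first window, centred on SGK223 at 8.32 Mb, had a median of -0.43 with hairpin #1 and -0.10 with hairpin #3, and the next, centred on MFHAS1, had -0.34 and 0.01. Single genes there were lower with both. FBXO25, the first gene at 0.41 Mb and a component of a ubiquitin ligase, was at 28.2, 25.2 and 23.3 CPM in control, 10.9, 12.7 and 12.1 CPM with hairpin #1, and 12.8, 16.5 and 14.7 CPM with hairpin #3. All its knockdown values lay below its control values, and its log2 fold change was -0.94 ± 0.13 (SE; adjusted p = 0.000136, edgeR). At the other end the last window, centred on C8orf82 at 144.53 Mb, had a median of -0.47 with hairpin #1 and -0.13 with hairpin #3. The very last gene, C8orf33 at 145.05 Mb, was lower with hairpin #1, by -0.39 (adjusted p = 0.0316, edgeR), and its log2 difference from control with hairpin #3 was 0.31 (adjusted p = 0.0803, edgeR). RPL8, a ribosomal protein gene at 144.79 Mb, had -0.42 with hairpin #1 (adjusted p = 0.00889, edgeR) and -0.12 with hairpin #3 (adjusted p = 0.441, edgeR).

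The median lay below 0 in all 6 knockdown libraries in 77 of the 114 windows on 8p and in 192 of the 202 windows on 8q. It lay below -0.2 in all 6 in 29 windows on 8p and 105 on 8q, together 42.4% of the windows. In the control libraries the window medians ran from -0.15 to 0.17 on 8p and from -0.24 to 0.22 on 8q, where 27 windows had a control library below -0.2. No window on 8q had a mean above 0 with either hairpin, whereas 9 windows on 8p did with hairpin #1 and 34 with hairpin #3.

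On 8p the longest run of low windows was centred on the genes from CLU at 27.60 Mb to MAK16 at 33.48 Mb, 25 windows with a median of -0.38 with hairpin #1 and -0.30 with hairpin #3. CLU, the chaperone clusterin, and MAK16, a ribosome assembly factor, mark the ends of that run and did not pass the test themselves, with log2 fold changes of -0.32 (adjusted p = 0.23, edgeR) and -0.27 (adjusted p = 0.15, edgeR). The lowest window of the arm, at -0.50, was centred on KAT6A, a histone acetyltransferase gene at 41.93 Mb that had -0.30 (adjusted p = 0.218, edgeR). The ends of the longest run moved with the setting. Its centres ran from 27.73 to 38.03 Mb with windows of 25 genes and from 26.38 to 38.73 Mb with a limit of -0.1.

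On 8q there were 7 runs of low windows, 2 of them of 3 windows each, from EYA1 to RPL7 (71.20 to 73.29 Mb) and from AZIN1 to FZD6 (102.83 to 103.30 Mb). The longer ones lay from ZFAND1 to TMEM64 (81.70 to 90.62 Mb), from RPL30 to RRM2B (98.02 to 102.20 Mb), from WDYHV1 to FAM49B (123.42 to 129.84 Mb), from TMEM71 to PLEC (132.69 to 143.92 Mb) and from GRINA to MFSD3 (143.99 to 144.51 Mb). The number and ends of these runs depend on the setting. Near the 8q end, windows of 25 genes gave 1 run from 125.09 to 144.47 Mb, and a limit of -0.1 gave 1 run from 123.25 to 144.51 Mb. In the window centred on ZFAND1, control library C was at -0.22. Hairpin #1 library B was at -0.20 there, and hairpin #3 libraries A and C were at -0.21. Neither hairpin thus lay below control in all its libraries in that window. In the next window, centred on CHMP4C, control library C was at -0.22 and hairpin #3 library C at -0.21. Hairpin #3 library C, at -0.21, was also above control library A, at -0.23, in the windows centred on PLEC and GRINA. The run from GRINA to MFSD3 was the lowest over both hairpins and with hairpin #1, with a median of -0.65. It stood at -0.35 with hairpin #3, for which the run from WDYHV1 to FAM49B was lower, at -0.40. The lowest window of the run from GRINA to MFSD3, at -0.66, was centred on CPSF1, which encodes a subunit of the factor that cleaves and polyadenylates messenger RNA. CPSF1 was at 171, 181 and 177 CPM in control, 130, 108 and 115 CPM with hairpin #1, and 130, 142 and 133 CPM with hairpin #3, with no overlap of knockdown and control (log2 fold change -0.47 ± 0.09 SE; adjusted p = 0.00168, edgeR). CPSF1 shares exon sequence with ADCK5, and 77 of the 344 genes share exon sequence with another expressed gene. The libraries carried no strand, so reads of such genes cannot be told apart by strand.

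**Figure D3:**
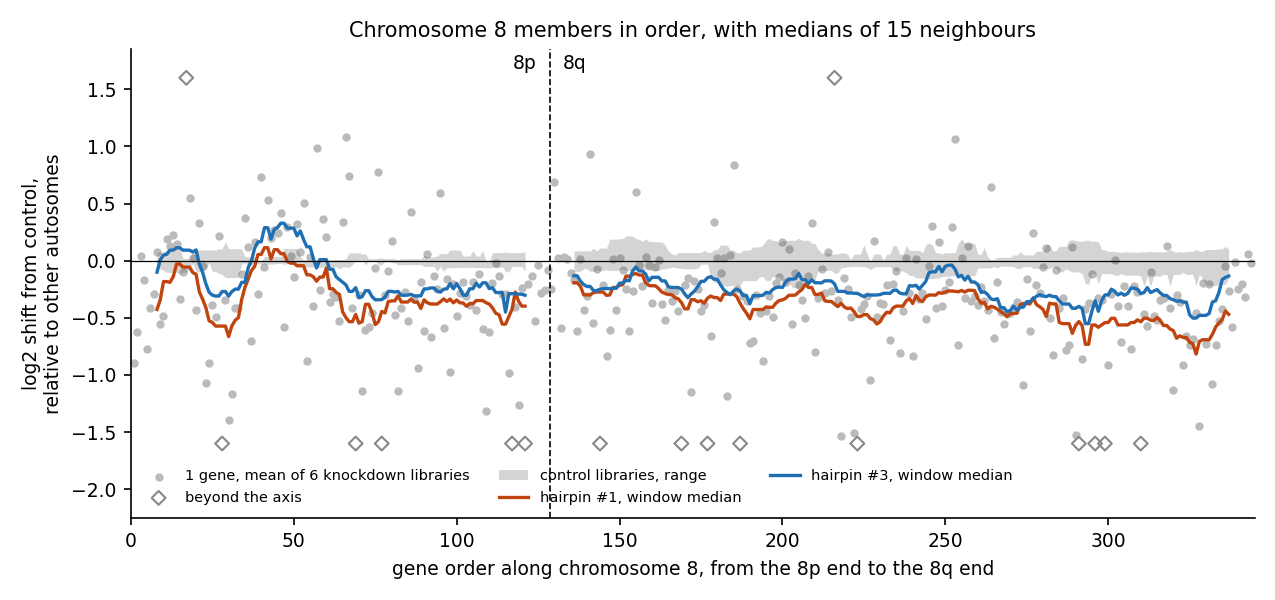
Shift of each chromosome 8 gene in its order along the chromosome (grey points, mean of the 6 knockdown libraries; diamonds, values beyond 1.6 in either direction) with the medians of 15 neighbours for hairpin #1 and hairpin #3 and the range of the control libraries. Both lines lie below 0 over all of 8q and most of 8p, and are highest, above 0 in part, in the stretch of 8p that begins with ATP6V1B2.

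Near the centromere, where the chosen genes leave a gap of 4.06 Mb, the window medians lay below 0 on both sides, less far on 8q. The last window of 8p, centred on SLC20A2, had a median of -0.40 with hairpin #1 and -0.30 with hairpin #3, and the first window of 8q, centred on ATP6V1H, had -0.19 and -0.13. In that 8q window hairpin #3 library A, at -0.08, was not below control library C, at -0.09. A fit of 6 step points to the mean of the knockdown libraries gave -0.17 for the 41 genes from SMIM19 to VCPIP1 (42.54 to 66.63 Mb). The segments before and after these had -0.32 and -0.31. Single genes there differed. SPIDR, a DNA repair scaffold, the first gene of 8q, fell by 0.27 on the log2 scale (adjusted p = 0.0297, edgeR), while CEBPD, a C/EBP transcription factor, rose (0.72 ± 0.23 SE; adjusted p = 0.0304, edgeR). In steps of 10 Mb the shift over both hairpins was smallest at 20 to 30 Mb, where it was -0.07 and 25 of 48 genes were below 0, and at 110 to 120 Mb, where it was -0.08 and 4 of 8 genes were. It was largest at 80 to 90 Mb, at -0.42 with 12 of 14 genes below 0, and at 140 to 150 Mb, at -0.42 with 57 of 61.

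A single stretch of 8p stood out against the shift. Fitting 2 step points to the mean of the knockdown libraries placed them around a run of 26 genes that begins with ATP6V1B2 at 20.20 Mb (GRCh38). In that stretch the median shift was 0.05, 0.05 and 0.004 with hairpin #1 and 0.18, 0.22 and 0.29 with hairpin #3, beside -0.01, -0.02 and -0.02 in control. The 34 genes before it had a median of -0.34 and the 284 genes after it a median of -0.32. The steps removed only 3.62% of the absolute deviation of single genes, and most of the spread between neighbouring genes lay within the segments. With 4 steps the stretch before it was divided at FDFT1. The first 19 genes, up to NEIL2 at 11.77 Mb, then had a median of -0.10 over both hairpins, and the 15 genes from FDFT1 to INTS10 had -0.41. In those first 19 genes the libraries were at -0.16, -0.24 and -0.19 with hairpin #1 but at -0.02, 0.07 and 0.10 with hairpin #3, beside 0.08, -0.07 and -0.04 in control, so that the hairpin #3 libraries did not lie below control. With 4 steps the last 83 genes, from ATAD2 at 123.32 Mb, had a median of -0.41, beside -0.29 for the 201 genes between DOCK5 and ZHX1.

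Of the 26 genes of this run, 18 had a pooled fold change above 0, 6 were called higher and 3 were called lower. Those called higher were ATP6V1B2, HR, BMP1, SORBS3, RHOBTB2 and LOXL2, and those called lower were DMTN, TNFRSF10A and R3HCC1, all named after their values were seen. Of all tested genes 15.9% were called higher and 17.0% lower, and of the 344 chromosome 8 genes 6.1% and 45.1%. The run was placed by the shifts of these same libraries, so its counts are a description and no test of it. LOXL2, a lysyl oxidase that cross-links collagen and elastin, was at 241, 239 and 284 CPM in control, 383, 550 and 548 CPM with hairpin #1, and 444, 512 and 552 CPM with hairpin #3. All its knockdown values lay above its control values (log2 fold change 0.97 ± 0.14 SE; adjusted p = 0.000191, edgeR). LOXL2 shares exon sequence with ENTPD4, and RHOBTB2 with TNFRSF10B. HR, a transcriptional corepressor, was at 19.99, 18.9 and 22.3 CPM in control and between 27.6 and 39.2 CPM in the knockdown libraries, again with no overlap (log2 fold change 0.74 ± 0.14 SE; adjusted p = 0.00177, edgeR).

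The death receptors of TRAIL, which lie side by side in this stretch and were chosen after their values were seen, did not move together. TNFRSF10A, an active receptor, was at 26.3, 21.6 and 19.3 CPM in control, 10.7, 11.6 and 10.2 CPM with hairpin #1 and 13.5, 10.99 and 13.2 CPM with hairpin #3, and it fell (-0.93 ± 0.13 SE; adjusted p = 0.000147, edgeR). TNFRSF10D, a decoy receptor without a working death domain, was at 59.1, 64.6 and 64.2 CPM in control, 62.9, 66.2 and 60.6 CPM with hairpin #1 and 104, 125 and 133 CPM with hairpin #3. It differed between the hairpins by 0.91 (adjusted p = 0.000117, edgeR), overlapping control with hairpin #1 and lying above it with hairpin #3. TNFRSF10B, the other active receptor, also differed between the hairpins, by 0.48 (adjusted p = 0.00386, edgeR), from 190 CPM on average in control to 165 CPM with hairpin #1 and 234 CPM with hairpin #3.

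In all, 72 of the 344 genes escaped the shift in the sense of a pooled fold change above 0, 37 of the 128 on 8p and 35 of the 216 on 8q. Only 21 of them were called higher, 14 on 8p and 7 on 8q, and 17 of these were called higher with each hairpin. The limit on control level kept out genes that rose from a low level, so these counts do not cover them. A further 6 genes reached a mean of 10 CPM over all 9 libraries but not in control. The strongest rise was that of FAM167A on 8p, at 41.8, 49.3 and 67.2 CPM in control, 243, 227 and 267 CPM with hairpin #1, and 272, 317 and 377 CPM with hairpin #3 (log2 fold change 2.43 ± 0.20 SE; adjusted p = 2.45e-06, edgeR). Its lowest knockdown value was above its highest control value by a wide margin. PNMA2, a member of the paraneoplastic antigen family, was at 13.0, 13.3 and 13.4 CPM in control and at 22.8 to 35.9 CPM in the knockdown libraries (1.11 ± 0.15 SE; adjusted p = 0.0001, edgeR). PNMA2 shares exon sequence with BNIP3L and DPYSL2, which were called higher as well. ZNF395, a zinc finger factor, was at 38.02, 29.1 and 32.5 CPM in control and at 50.2 to 62.4 CPM in the knockdown libraries (0.76 ± 0.11 SE; adjusted p = 0.000196, edgeR).

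On 8q the 7 genes called higher were spread from 47.74 to 117.79 Mb. MATN2, which encodes matrilin-2 of the extracellular matrix, was at 23.4, 26.0 and 32.96 CPM in control, 85.2, 76.8 and 80.2 CPM with hairpin #1, and 88.5, 80.8 and 83.9 CPM with hairpin #3 (1.59 ± 0.12 SE; adjusted p = 9.63e-07, edgeR). The chromosome 8 genes just before it, at 97.64 and 97.78 Mb, were MTDH, with a log2 fold change of 0.07 (adjusted p = 0.774, edgeR), and LAPTM4B, a lysosomal membrane protein that fell by 0.29 on the log2 scale (adjusted p = 0.0149, edgeR). EXT1, a glycosyltransferase of heparan sulfate synthesis, was at 124, 126 and 135 CPM in control, 235, 247 and 271 CPM with hairpin #1, and 276, 276 and 281 CPM with hairpin #3 (1.05 ± 0.09 SE; adjusted p = 3.85e-06, edgeR). SOX17, a transcription factor of endoderm and of the fallopian tube lineage, was at 15.2, 14.4 and 13.5 CPM in control and at 20.6 to 34.3 CPM in the knockdown libraries, with no overlap (0.96 ± 0.17 SE; adjusted p = 0.00106, edgeR). IMPA1, inositol monophosphatase, rose with both hairpins (0.84 ± 0.13 SE; adjusted p = 0.000442, edgeR) next to ZFAND1, where a run of low windows begins. The other genes called higher on 8q were CEBPD, GGH and ENY2.

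At the low end, single genes fell far beyond the shift of their surroundings. EYA1, a transcriptional coactivator and phosphatase, had 290, 268 and 207 counts in control, 0 counts in each hairpin #1 library and 1, 0 and 0 counts with hairpin #3. Against a floor of 3 counts in each library, EYA1 was at least 89.7-fold lower with hairpin #1 and at least 77.7-fold lower with hairpin #3. These bounds cover counting error only, since PCR copies are not independent molecules. It lay within a run of 3 low windows, EYA1 to RPL7, whose median was only -0.36 over both hairpins.

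MROH6 at 143.57 Mb was at 79.4, 98.5 and 97.04 CPM in control, 2.76, 2.17 and 2.43 CPM with hairpin #1, and 3.38, 3.94 and 4.12 CPM with hairpin #3 (log2 fold change -4.87 ± 0.17 SE; adjusted p = 2.09e-09, edgeR). EPPK1, which encodes epiplakin, a plakin that binds keratin filaments, was at 19.9, 17.7 and 14.98 CPM in control and at 0.420 to 1.01 CPM in the knockdown libraries (-4.58 ± 0.20 SE; adjusted p = 9.63e-09, edgeR). OSR2, a zinc finger factor of limb and palate development, was at 47.6, 52.8 and 45.4 CPM in control, 3.69, 3.54 and 3.81 CPM with hairpin #1, and 5.40, 7.16 and 5.91 CPM with hairpin #3 (-3.30 ± 0.19 SE; adjusted p = 1.14e-07, edgeR). In these genes the knockdown values were a small part of the control values in every library. LYNX1, of the Ly6 family, was at 10.6, 10.8 and 15.2 CPM in control, 0.234, 0.758 and 0.377 CPM with hairpin #1, and 2.196, 1.78 and 2.34 CPM with hairpin #3 (-3.27 ± 0.49 SE; adjusted p = 0.000298, edgeR).

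On 8p the lowest gene was PLAT, which encodes tissue plasminogen activator. It was at 183, 280 and 367 CPM in control, 39.3, 45.2 and 59.2 CPM with hairpin #1, and 31.2, 37.9 and 51.7 CPM with hairpin #3 (-2.64 ± 0.22 SE; adjusted p = 2.71e-06, edgeR). SLC20A2, a phosphate transporter, was at 77.6, 76.8 and 80.1 CPM in control and at 19.2 to 27.5 CPM in the knockdown libraries (-1.81 ± 0.12 SE; adjusted p = 2.32e-07, edgeR). SLC20A2 shares exon sequence with SMIM19. MTUS1, a microtubule-associated protein gene, PTK2B, of the focal adhesion kinase family, and FZD3, a Wnt receptor, had log2 fold changes of -1.80, -1.79 and -1.75 (adjusted p = 0.000171, 0.000136 and 9.44e-05, edgeR). Between PLAT and SLC20A2 lay VDAC3, a channel of the mitochondrial outer membrane, at -0.26 (adjusted p = 0.062, edgeR).

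**Figure D4:**
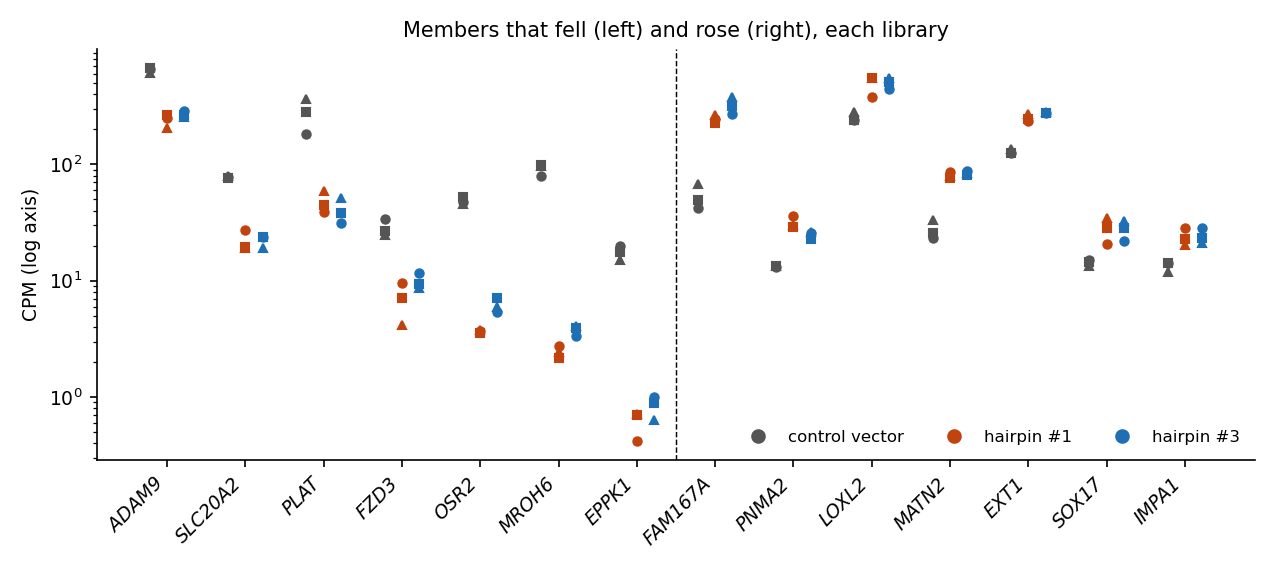
CPM of 14 chromosome 8 genes on a log axis in each library (circles, squares and triangles for libraries A, B and C; colours for the groups). The genes on the left, ADAM9 to EPPK1, have all knockdown values below all control values, and those on the right, FAM167A to IMPA1, have all knockdown values above them.

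The genes were then grouped by role in 10 lists that held 160 of the 344 genes, none of them in more than 1 list. The median fold change lay below that of all tested genes (0.0045) in 9 of the 10 lists, the exception being matrix, secreted and mesenchymal genes. The lists were drawn up with results of these data known. Of all tested genes 17.0% were called lower and 15.9% higher. The counts of the lists are read first beside the 344 genes themselves, of which 45.1% were lower and 6.1% higher, with a median of -0.32. A list near those values moved as the chromosome 8 genes did at large.

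Of 12 genes of translation and ribosome assembly, 12 had a pooled fold change below 0 and 3 were called lower, with a median of -0.29. With hairpin #1 alone 9 of them were called lower, and with hairpin #3 alone 3. Of the chromosome 8 genes at large, 54.1% were called lower with hairpin #1 and 37.5% with hairpin #3, and of all tested genes 19.7% and 18.1%. PABPC1, the poly(A)-binding protein, was at 1839, 1799 and 1841 CPM in control, 1469, 1234 and 1186 CPM with hairpin #1, and 1533, 1524 and 1422 CPM with hairpin #3, and fell by 0.38 on the log2 scale (adjusted p = 0.0101, edgeR). EIF3E and EIF3H, subunits of an initiation factor complex, were the other genes called lower. RPL7 had a log2 fold change of -0.17 (adjusted p = 0.211, edgeR). RPL7, RPL8 and RPL30 have processed copies elsewhere in the genome, so their counts are uncertain.

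Of 15 mitochondrial genes, 8 were called lower and 1 higher, with a median of -0.34. Genes of the respiratory chain were among them. CYC1, cytochrome c1 of complex III, went from 145 ± 4.72 CPM (SD, n = 3) in control to 103 ± 14.5 and 123 ± 0.338 CPM (SD, n = 3 each) with hairpins #1 and #3 (log2 fold change -0.36; adjusted p = 0.0217, edgeR), and UQCRB, NDUFB9 and COX6C were lower as well. The mitochondrial gene that rose was BNIP3L, a mitophagy receptor, which lies on 8p.

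Of 22 genes of DNA repair, replication and the cell cycle, 9 were called lower and none higher by the pooled test, with a median of -0.39. With hairpin #1 alone 12 were called lower and with hairpin #3 alone 3. The shares were 19.7% and 18.1% of all tested genes, and 54.1% and 37.5% of the chromosome 8 genes. POLB, the polymerase of base excision repair, was at 43.4, 42.8 and 37.98 CPM in control and at 14.4 to 17.4 CPM in the knockdown libraries, the lowest fold change of that list (-1.31 ± 0.09 SE; adjusted p = 5.93e-07, edgeR). PRKDC, the catalytic subunit of DNA-dependent protein kinase near the centromere, was at 505 ± 119 CPM in control, 504 ± 135 CPM with hairpin #1 and 503 ± 96.6 CPM with hairpin #3 (SD, n = 3 each), so its groups overlapped fully (adjusted p = 0.991, edgeR). RAD21, a cohesin subunit, had -0.21 (adjusted p = 0.175, edgeR). RRM2B, a ribonucleotide reductase subunit, was at 145, 124 and 124 CPM in control, 59.1, 68.4 and 47.7 CPM with hairpin #1, and 120, 103 and 100 CPM with hairpin #3. It fell with hairpin #1 (-1.14; adjusted p = 9.43e-06, edgeR), while its value with hairpin #3 was -0.28 (adjusted p = 0.0981, edgeR).

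The lists of the lysosome and of protein turnover were similar. Of 18 genes of the lysosome, the V-ATPase and vesicle traffic, 10 were called lower and 1 higher, with a median of -0.32. ASAH1, lysosomal acid ceramidase, went from 104 CPM on average in control to 38.5 and 38.6 CPM (-1.43; adjusted p = 3.93e-07, edgeR), and CHMP4C, a subunit of the ESCRT-III membrane scission complex, from 26.0 to 5.73 and 8.17 CPM (-1.90; adjusted p = 1.95e-06, edgeR). CTSB, the lysosomal protease cathepsin B, went from 374 to 468 and 454 CPM with overlap between the groups (0.31; adjusted p = 0.0988, edgeR). Of 16 genes of ubiquitin and protein turnover, 11 were called lower and none higher, with a median of -0.40. TCEB1, elongin C, was lower with both hairpins and less so with hairpin #3, with a log2 difference between them of 0.34 (adjusted p = 0.032, edgeR).

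The list of epithelial and cell surface genes named 16 genes, of which 8 were among the chosen genes. The limit on control level admits genes that fell from a high level and keeps out genes that rose from a low one. The 8 genes had the lowest pooled median of the lists, -0.84, with all 8 called lower and all but SH2D4A on 8q. PLEC, the cytoskeletal linker plectin, was at 1313 ± 102 CPM in control, 841 ± 134 CPM with hairpin #1 and 1038 ± 111 CPM with hairpin #3 (SD, n = 3 each; log2 fold change -0.48; adjusted p = 0.014, edgeR). LY6E, a GPI-anchored surface protein, was at 219, 251 and 277 CPM in control and at 118 to 156 CPM in the knockdown libraries (-0.89; adjusted p = 8.25e-05, edgeR). TPD52 and RHPN1 fell by 1.21 and 1.67 on the log2 scale. Epithelial markers outside the chromosome fell in the same libraries, as the EPCAM values above show, and their part in these falls was not tested. The same holds for ESRP1, GRHL2 and MAL2, epithelial genes of 8q left out by name, which were at 173, 112 and 392 CPM on average in control and at no more than 1.15 CPM on average in either knockdown group.

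Of the 23 genes of the matrix, secreted and mesenchymal list, 11 were among the chosen genes. Of these 11, 3 were called lower and 4 higher, with a median of 0.01. Those that rose were BMP1, LOXL2, MATN2 and EXT1, and those that fell were SCARA3, ADAM9 and PLAT. ADAM9, a membrane metalloprotease, was at 655, 674 and 607 CPM in control, 252, 264 and 207 CPM with hairpin #1, and 288, 266 and 256 CPM with hairpin #3 (-1.33 ± 0.09 SE; adjusted p = 5.82e-07, edgeR). SNAI2, the transcription factor Slug, which lies near PRKDC and the centromere, was at 32.4 CPM in control and at 30.9 and 34.2 CPM in the knockdown groups (adjusted p = 0.938, edgeR). SFRP1, a secreted Wnt antagonist, went in opposite directions, from 15.4 CPM to 4.21 CPM with hairpin #1 and 21.2 CPM with hairpin #3, a log2 difference between the hairpins of 2.31 (adjusted p = 4.35e-06, edgeR).

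Of 20 genes of cell death and signalling, 13 were called lower and none higher over both hairpins, with a median of -0.43. Among them were kinases with falls well beyond the shift. STK3, a kinase of the Hippo pathway, went from 89.8 CPM to 26.6 and 34.9 CPM (-1.54; adjusted p = 2.28e-06, edgeR), and LYN, a Src family kinase, from 49.2 CPM to 16.5 and 6.75 CPM (-2.06; adjusted p = 0.000374, edgeR). YWHAZ, a 14-3-3 protein, was at 1074 ± 77.5, 839 ± 69.0 and 785 ± 81.9 CPM (SD, n = 3 each; -0.40; adjusted p = 0.0073, edgeR). Of 26 genes of transcription and chromatin, 8 were called lower and 2 higher, ZNF703 and CEBPD, with a median of -0.22. PUF60, a splicing factor, had -0.23 (adjusted p = 0.142, edgeR).

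Of 12 genes of lipid and intermediary metabolism, 6 were called lower and none higher, with a median of -0.41. With each hairpin alone the medians were lower, -0.59 with hairpin #1 and -0.76 with hairpin #3, where the epithelial list also stood at -0.76. Both squalene enzymes of the chromosome were lower with hairpin #3 and not called with hairpin #1. FDFT1, squalene synthase on 8p, was at 418, 404 and 464 CPM in control, 356, 383 and 470 CPM with hairpin #1, and 246, 212 and 268 CPM with hairpin #3. SQLE, squalene epoxidase on 8q, was at 161, 159 and 159 CPM in control, 148, 161 and 166 CPM with hairpin #1, and 102, 76.6 and 87.8 CPM with hairpin #3. In both genes hairpin #1 overlapped control and hairpin #3 lay below it, with log2 differences between the hairpins of -0.76 (adjusted p = 0.00232, edgeR) and -0.85 (adjusted p = 0.000241, edgeR). DGAT1, which makes triglycerides, and GSR, glutathione reductase, were called lower over both hairpins, by 0.95 and 0.94 on the log2 scale.

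**Figure D5:**
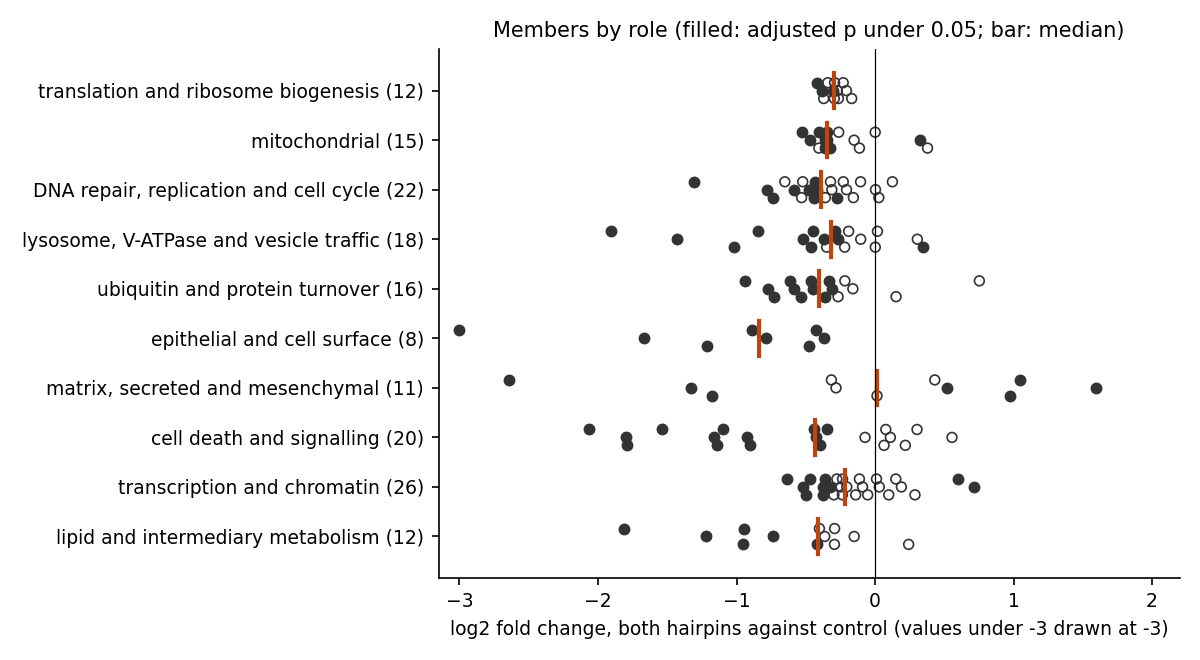
Log2 fold change of chromosome 8 genes by role for both hairpins against control; each point is 1 gene, filled where the adjusted p was under 0.05 (EPPK1, at -4.58, is drawn at -3), and the bar is the median of the list. The medians lie between -0.84 (epithelial and cell surface) and 0.01 (matrix, secreted and mesenchymal), and the translation genes lie close together to the left of 0.

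With limits at 31.1 and 74.2 CPM, which cut the genes outside the chromosome into 3 equal classes, the shift over both hairpins was -0.31, -0.27 and -0.33 from low to high control level. On 8p it was -0.22, -0.15 and -0.36, and on 8q -0.35, -0.31 and -0.32. By gene length it was -0.28, -0.31 and -0.31. By GC content of the longest transcript the arms differed. Among the 44 genes of 8p under 43.5% GC the shift was -0.41, and among the 28 genes of 8p over 53.5% GC it was 0.03, whereas on 8q it was -0.30 for 109 genes of low GC and -0.44 for 58 genes of high GC. The run of 26 genes that begins with ATP6V1B2 had a median GC content of 57.2%, beside 62.0% in the 82 genes of the low end of 8q from WDYHV1 onwards, so high GC went with a shift near 0 in one place and with a large shift in the other. Removing trends with GC content and length in each library, a choice made after seeing the data, gave -0.30, -0.42 and -0.44 with hairpin #1 and -0.22, -0.21 and -0.26 with hairpin #3.

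Genes of the chromosome that the choice left out were examined in the same way. Among 67 coding genes at 1 to 10 CPM in control, set against 2517 genes of that level elsewhere, the shift over both hairpins was -0.05. It was -0.26 for the 27 of them on 8p, beside -0.24 for the chosen genes of that arm, and 0.04 for the 40 on 8q, where the libraries ran from -0.07 to 0.15. Among 50 non-coding genes of at least 1 CPM the shift was -0.26 with hairpin #1 and -0.12 with hairpin #3.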

How the data were processed

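The authors deposited raw counts of reads per gene for 9 poly(A) RNA libraries without strand information, and no normalization was applied to them. The submitters' processing notes name HISAT2 2.0.5 and featureCounts 1.5.0-p3. Positions are on GRCh38, since 321 of the 344 genes had the same coordinates in GENCODE 29. Each count column was assigned to a sample by its label. Members were protein-coding rows of chromosome 8 with a control mean of at least 10 CPM (counts over the library total, scaled to 1e6), arms being divided at 45 Mb. The members and lists were chosen with earlier results of these data known.

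Counts were tested with edgeR 4.0.16 in R 4.3.3 (TMM, filterByExpr for the 3 groups, glmQLFit and glmQLFTest, 15975 genes, Benjamini-Hochberg adjustment, threshold 0.05). The pooled comparison set 6 knockdown libraries against 3 control libraries, and hairpins were compared in a 3-group model. Shifts used log2(CPM + 0.5) in Python 3.11.15 and a fold change on that scale understates changes of low genes. Both procedures were checked on simulated data. Named genes were the 5 lowest and 5 highest of each arm, the 2 most abundant of each list, and the ends of runs of low windows; others were named after their values were seen. Counts over stretches and classes by level, length and GC content were chosen after seeing the data.

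Libraries of the same letter deviated together from their group means with correlations of 0.33 to 0.63 between hairpin #3 and control, 0.11 to 0.66 between the hairpins and 0.08 to 0.62 between hairpin #1 and control. As all were over 0.1 in the first 2 comparisons, the letter was taken there as pairing the libraries, and not for hairpin #1 against control. Between the hairpins, as between hairpin #1 and control, only 4 of 6 libraries correlated best with the library of their own letter. The pairing of the hairpins thus rests on a narrow margin. Alternatives were no low-count filter, other scaling, DESeq2 1.42.0, the letter as a block, a 3-group model, other pseudocounts, floors, averages and reference genes, other windows, and each library left out.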

Additional observations from a re-analysis of the deposited data

Results flagged for a closer look

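Of the 56 genes named by the rule (extremes of each arm, the most abundant genes of each list and the ends of runs of low windows), 11 differed between the hairpins by the test of hairpin #3 against hairpin #1 itself (edgeR, adjusted p under 0.05, over all genes tested). The log2 difference was above 0, with a higher level under hairpin #3, for LYNX1 (2.198), RRM2B (0.86), OSR2 (0.72), MROH6 (0.62), MFSD3 (0.48), AZIN1 (0.35) and TCEB1 (0.34). It was below 0 for FBXO32 (-0.95), SQLE (-0.85), FDFT1 (-0.76) and PNMA2 (-0.38). Of all tested genes 6.33% were called higher and 5.30% lower with hairpin #3 than with hairpin #1, and of the 344 chromosome 8 genes 9.01% and 2.91%. The extremes of each arm were chosen by their fold change against control in these same libraries. FBXO32, a muscle-type ubiquitin ligase subunit, stood at 65.1 ± 27.3 CPM with hairpin #1 against 34.2 ± 6.53 CPM with hairpin #3 and 29.7 ± 6.61 CPM in control (SD, n = 3 each). AZIN1, an inhibitor of antizyme, stood at 259 ± 10.3 CPM in control, 127 ± 9.37 CPM with hairpin #1 and 165 ± 9.39 CPM with hairpin #3 (SD, n = 3 each), and MFSD3 at 42.6 ± 6.12, 24.1 ± 3.71 and 34.2 ± 0.521 CPM.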

How the results depend on the processing

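Every shift over the chromosome and its arms stayed below 0 under all alternatives run, and the pooled chromosome shift lay between -0.32 and -0.27 when single libraries were left out. With 3 libraries a group, the exact permutation test of the shift cannot go below p = 0.1. Without single libraries, counts of genes lower over both hairpins ran from 115 to 166, beside 12.3% to 16.9% of all tested genes. Counts of genes higher ran from 16 to 22, beside 10.5% to 15.4%. For hairpin #3 against hairpin #1, 6 to 10 were lower and 16 to 49 higher, beside 2.85% to 5.73% and 3.54% to 6.51%. DESeq2 called 48 higher there, beside 7.88%. The cause was not tested. With the replicate block, 18 genes were lower and 88 higher for hairpin #3 against hairpin #1, beside 10.9% and 12.2% of all tested genes. For hairpin #3 against control 183 were lower and 37 higher, beside 23.6% and 21.9%. For hairpin #1 against control, where 4 of 6 libraries correlated best with the library of their own letter, 229 were lower and 29 higher, beside 25.1% and 23.7%. Over both hairpins the block gave 175 lower and 23 higher, beside 18.5% and 17.7%, and CTSB and VDAC3 passed the threshold. Low windows made up 67.7% of all at a limit of -0.1 and 10.8% at -0.3, as fewer windows lie under a stricter limit. Genes with values near 0 changed sign: PRKDC had -0.0042 with library totals and -0.1205 to 0.1987 without single libraries, MTDH -0.007 to 0.1719, and FZD6 0.0029 without a low-count filter, 0.0016 with DESeq2 size factors, 0.0013 with DESeq2 and -0.0494 to 0.0588 without single libraries.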
